A study of Mus musculus with 3 samples.

Results

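The enzymes described here are the drug-metabolising cytochromes P450 of families 1 to 4 and the enzymes that conjugate their products, measured in mouse follicle-associated epithelium, the single layer of cells that covers the lymphoid follicles of Peyer's patches in the small intestine. Members were chosen by name: genes whose probe set carries a single symbol that starts with Cyp1, Cyp2, Cyp3 or Cyp4 and a letter, or with Ugt1, Ugt2, Gsta, Gstm, Gstp, Gstt, Gstk, Gsto, Sult1 or Sult2. There are 92 such genes among 18193 genes on the array, each read by its probe set with the highest mean. The arrays are 1 of wild type C57BL/6 mice and 2 of mice on the same strain whose floxed Rbpj alleles were deleted by Villin-Cre. All animals were untreated, and no age is stated. Villin is active in intestinal epithelium, so cells of other types in the sample keep an intact Rbpj. RBP-J binds DNA and passes Notch signals on to target genes, and the comparison asks which of these enzymes differ in this epithelium when it is depleted.

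Cytochromes P450 are haem enzymes of the endoplasmic reticulum that oxidise drugs, dietary toxins, fatty acids and steroids. Their products are made water-soluble by transferases: UDP-glucuronosyltransferases (UGT) add glucuronic acid, glutathione S-transferases (GST) add glutathione, and sulfotransferases (SULT) add sulfate. In the intestine these enzymes sit mainly in absorptive enterocytes, where they metabolise swallowed compounds before the liver does. Their genes are switched on by ligand-activated receptors, among them the aryl hydrocarbon receptor (AhR), PXR and CAR.

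Intensities are given as multiples of the array median, in the order wild type, first depleted and second depleted array. Differences are log2(value + 0.248), depleted minus wild type, and fold statements use the same scale. Probe sets differ in how strongly they bind, so the levels of different genes are not ranked against each other. The 3 arrays share a median of 1, but their 75th percentiles are 4.19, 4.05 and 4.79. Across the 11885 genes above the intensity filter the first depleted array had a median difference of -0.003, whereas the second had 0.22, a shift that its values below include. Rbpj read 7.15, 2.72 and 5.74, lower in both depleted arrays, and was not called (limma log2 difference -0.81, adjusted p = 0.9997). The position of its probe set relative to the deletion is unknown here, so the reading does not check the labels. The sex-linked RNA Xist read 0.297, 42.8 and 43.4 and the Y-linked Eif2s3y 20.6, 0.122 and 0.056, so genotype and the sex of the animals cannot be told apart. Nothing states that the depleted samples came from separate animals, and the spread between them may be technical.

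The epithelial identity of the samples was checked on marker genes. Absorptive enterocyte markers were bright on every array, with the brush border protein Vil1 at 70.7, 85.3 and 78.6 and the fatty acid binding protein Fabp2 at 138, 158 and 192. Ccl20, the chemokine of this epithelium, read 49.9, 45.2 and 74.6. B cell markers were present too: their summed level was 58.4, 29.0 and 71.3, and the median difference of the 11 tested was -1.15 in the first depleted array, beside -0.06 in the second. Of these 11, 6 were lower and 1 higher in both arrays. In the second array 5 were higher, among them the bright Ighm, at 13.1, 9.72 and 27.0, and Cd79a, at 11.1, 5.85 and 16.7. Follicle-associated epithelium and M cell markers, 12 tested, summed to 486, 535 and 710, and 8 of them were above wild type in the first depleted array. The M cell genes Gp2, at 19.8, 9.90 and 32.6, Sox8, at 9.67, 5.62 and 9.53, and Spib, at 38.9, 33.8 and 67.6, were below it there. Macrophage and dendritic cell markers summed to 206, 239.5 and 247.5 (8 of 10 tested), most of it from Lyz1, the lysozyme of Paneth cells, at 130.3, 160.5 and 153.3, and Lyz2 at 56.8, 55.7 and 70.0, with no other marker of that list above 13.6. Also present were plasma cell markers, summed to 99.97, 99.4 and 138 (7 of 8 tested), and T cell markers, summed to 17.8, 14.3 and 22.6 (all 8). No gene of these lists was called. Pancreatic acinar markers summed to at most 5.14, with 2 of 5 tested. Stromal and muscle markers summed to between 5.41 and 8.38 on the 3 arrays, with 8 of 12 not above the intensity filter. Of 7 liver markers, Alb and Fga read at most 0.758 and 0.017, while Ttr and Cps1, which gut epithelium also makes, carried most of a summed level of 101, 101 and 120. In bulk tissue, fewer cells of a type and less RNA per cell cannot be told apart.

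Of the 92 enzymes, 52 had a mean at or above 0.598, the level above which genes were tested, and 40 did not. No enzyme was called by limma at an adjusted p under 0.05, against 0.0841% of all genes tested (10 of 11885). Without adjustment 1 enzyme had a p under 0.05, Cyp2c70, against 2.27% of all genes. At least a 2-fold difference in both depleted arrays was seen for 1 of the 52, again Cyp2c70, against 1.33% of all genes. With 0.196 in wild type, Cyp2c70 passed the filter only through its depleted readings, so that it had to differ, and neither count supports a difference of these enzymes. That gene was higher, as were 0.841% of all genes, while 0 enzymes and 0.488% of all genes were lower by that much. Against wild type alone, 2 enzymes were 2-fold away in the first depleted array (Cyp2c70 and Cyp2d34) and 1 in the second (Cyp2c70), beside 6.42% and 5.21% of all genes. Between the depleted arrays, 3 enzymes were at least 2-fold apart (9.06% of all genes). As ratios of the intensities themselves, with no pseudocount, the 3 arrays lay within 2-fold of each other for 47 of the 52. That share was 90.4%, beside 80.0% of all genes tested. Within 1.5-fold lay 27 of the 52, or 51.9%, beside 48.3% of all genes. The enzymes and all genes were not matched for brightness.

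Smaller differences ran upward more often than downward. Both depleted arrays lay above wild type for 28 enzymes (39.0% of all genes), both below for 7 (19.5%), and wild type lay between them for 17 (41.5%). The median over the 52 was 0.10 and then 0.39, where all genes had -0.003 and 0.22. Read against each array's median over all genes, 26 enzymes were above in both arrays and 9 below in both, where all genes gave 29.9% above and 29.9% below. With quantile normalization, which equalises the arrays' distributions, 26 were higher and 11 lower in both, where all genes gave 31.0% and 29.4%, and the enzymes' medians were 0.14 and 0.13. The depleted arrays share the same wild type array, so a low or high reading there moves both differences together. Of 18 absorptive enterocyte markers, with 0 called, 13 were higher and 0 lower in both arrays, or 11 above and 4 below each array's median, with medians of 0.16 and 0.30 and a summed level of 1489, 1663 and 1909. Their part in the shift of the enzymes was not tested.

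**Figure D1:**
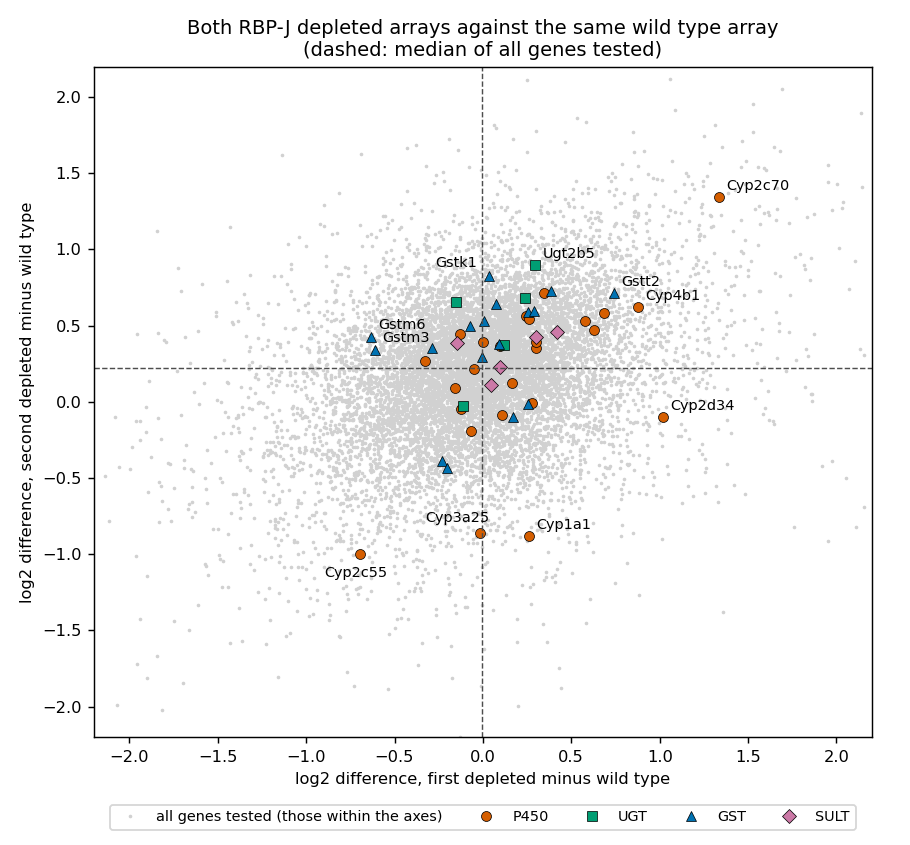
Each point is a gene tested, with its log2 difference from wild type in the first depleted array on the horizontal axis and that in the second on the vertical axis; coloured symbols are the 52 enzymes, grey points all genes that fall within the axes, and dashed lines the medians of all genes. Most enzymes lie in the middle of the grey cloud, Cyp2c70 lies at the upper right, and Cyp2c55, Cyp3a25 and Cyp1a1 lie low.

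P450 family 1 holds the classical AhR targets, and of its 3 genes on the array 1 was tested. Cyp1a1, which oxidises polycyclic aromatic hydrocarbons, read 23.9, 28.7 and 12.9. The first depleted array was thus above wild type and the second below it, with log2 differences of 0.26 and -0.88, the widest gap between the depleted arrays among the 52 enzymes. The limma difference was -0.31 (SE 0.44, adjusted p = 0.9997), and its sign is that of the second array alone. Its relatives Cyp1a2, a liver enzyme, and Cyp1b1 had readings between 0.007 and 0.411 and were not tested.

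The promoter of Cyp1a1 is shown because this gene is the best known readout of AhR. Those of Cyp2c70 and Cyp2c55 are shown because these genes had the largest common difference upward and downward. RefSeq promoters (GRCm38.p6, a short window across the start of transcription) were found for 76 of the 92 genes. They were searched on both strands for GCGTG, the core that AhR binds, and for TGGGAA, the core that RBP-J binds. Capitals mark a match on either strand. TGGGAA was found in 26 of the 76, or 34.2%, and in 25.5% of all 27025 promoters. Among enzymes above the filter it was found in 12 of 46, or 26.1%. GCGTG was found in 18 of the 76, or 23.7%, and in 32.5% of all promoters, and in 15 of 46, or 32.6%, above the filter. A match describes these letters and does not show binding. The Cyp1a1 window, chr9:57697363-57697662 on the plus strand, holds GCGTG once and TGGGAA nowhere.
Cyp1a1: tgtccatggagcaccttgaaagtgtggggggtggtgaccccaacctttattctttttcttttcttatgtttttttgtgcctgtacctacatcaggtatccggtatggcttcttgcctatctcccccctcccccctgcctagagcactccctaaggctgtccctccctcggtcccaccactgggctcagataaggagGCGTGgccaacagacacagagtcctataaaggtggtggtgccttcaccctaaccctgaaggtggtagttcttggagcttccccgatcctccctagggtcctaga
That of Cyp2c70, chr19:40187237-40187536 on the minus strand, holds TGGGAA once, on the opposite strand.
Cyp2c70: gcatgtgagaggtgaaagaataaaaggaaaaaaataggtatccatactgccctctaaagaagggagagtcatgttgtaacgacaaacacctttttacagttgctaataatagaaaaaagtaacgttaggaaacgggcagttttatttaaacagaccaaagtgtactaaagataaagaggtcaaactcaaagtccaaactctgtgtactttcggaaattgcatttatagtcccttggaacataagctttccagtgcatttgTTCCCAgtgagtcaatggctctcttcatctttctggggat
That of Cyp2c55, chr19:39006769-39007068 on the plus strand, holds neither.
Cyp2c55: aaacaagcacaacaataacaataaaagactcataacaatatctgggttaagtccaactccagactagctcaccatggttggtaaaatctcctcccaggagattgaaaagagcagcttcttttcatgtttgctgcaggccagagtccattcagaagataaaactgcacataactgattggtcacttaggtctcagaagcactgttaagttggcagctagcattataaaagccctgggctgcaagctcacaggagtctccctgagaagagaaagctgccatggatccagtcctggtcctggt

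Family 2 is the most numerous, with 35 genes, of which 15 were tested: 8 were higher in both depleted arrays, 3 lower in both and 4 split. Cyp2c70, which makes muricholic acids from bile acids in mouse liver, read 0.196, 0.872 and 0.878. Both depleted arrays were above wild type, by log2 differences of 1.33 and 1.34, but all 3 readings lie under the array median and the wild type one under the pseudocount. The limma difference of 1.34 (SE 0.64, unadjusted p = 0.0374, adjusted p = 0.9997) did not pass the test, and with a pseudocount of 1 the gene was no longer 2-fold from wild type.

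Cyp2c55, an arachidonic acid oxidising enzyme of the gut that PXR and CAR ligands induce, was the opposite case. It read 6.45, 3.89 and 3.10. Both depleted arrays were below wild type, by log2 differences of -0.69 and -0.998, the largest drop in both arrays among the 52, and it was not called (limma -0.85, SE 0.50, adjusted p = 0.9997). Of the other Cyp2c genes on chromosome 19, Cyp2c65 read 19.7, 21.2 and 18.5, and Cyp2c68 read 11.5, 10.5 and 11.1. The 3 arrays of these genes lay close together, with log2 differences between -0.12 and 0.11.

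Among the Cyp2j genes on chromosome 4, which make epoxides of arachidonic acid, the tested members divided. Cyp2j6 read 8.68, 13.1 and 12.6, with log2 differences of 0.58 and 0.53. Cyp2j9 read 0.679, 1.24 and 1.14, with differences of 0.69 and 0.58, both depleted readings above wild type. Cyp2j11 read 1.34, 1.26 and 1.14 and Cyp2j5 0.589, 0.768 and 0.583, with no difference beyond 0.28 in size. Cyp2j13 read 0.331, 0.076 and 0.078 and was too dim to be tested.

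Cyp2d26, of the Cyp2d cluster on chromosome 15, read 19.5, 30.2 and 27.1, so that both depleted arrays were above wild type, by 0.63 and 0.47 on the log2 scale. Its neighbour Cyp2d22 read 2.54, 2.26 and 2.72 and showed no common direction. Cyp2d34 read 0.672, 1.62 and 0.609: the first depleted array stood alone, at a log2 difference of 1.02, beside -0.10 in the second. Cyp2b10, the classical CAR target, read 6.39, 7.93 and 8.45, and the extrahepatic Cyp2s1 read 6.60, 8.45 and 10.98. For both genes the depleted arrays lay above wild type, by 0.30 and 0.39 and by 0.34 and 0.71. No difference in this family was called.

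Family 3 gave 3 tested genes of 5, in which the second depleted array differed most. Cyp3a13, an intestinal member, read 52.2, 62.8 and 76.3, above wild type in both depleted arrays by 0.26 and 0.54. Cyp3a11, the main drug-oxidising Cyp3a of mouse liver and gut and a PXR target, read 13.2, 13.3 and 17.5. The first depleted array matched wild type to within 0.01 on the log2 scale, and the second was 0.39 above it, or 0.17 above the median of all genes there. Cyp3a25 read 16.5, 16.2 and 8.96. It thus lay at the wild type level in the first depleted array, while the second stood at -0.86.

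Family 4 enzymes hydroxylate the far end of fatty acids and eicosanoids, and 6 of 13 were tested: 3 were higher in both depleted arrays, 0 lower and 3 split. Over all genes, 39.0% were higher and 19.5% lower in both. Cyp4b1 read 4.26, 8.04 and 6.69. Its depleted readings were both above wild type, by 0.88 and 0.62, and its limma difference of 0.75 (SE 0.49, adjusted p = 0.9997) was the largest upward one after that of Cyp2c70. Cyp4f14, which inactivates leukotriene B4, read 39.98, 36.6 and 54.4, and Cyp4f16 read 29.7, 28.7 and 34.6. For both, wild type lay between the depleted arrays. Cyp4v3 read 31.0, 38.3 and 39.6, above wild type in both by 0.30 and 0.35, but its other probe set read 14.5, 13.8 and 13.4, below wild type in both. Probe sets with several symbols were not used. That of Cyp4a31 and Cyp4a10 read 2.17, 4.55 and 3.31, above wild type in both. That of Cyp4f37 and Cyp4f16 read 9.77, 5.93 and 11.8, with wild type between the depleted arrays.

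**Figure D2:**
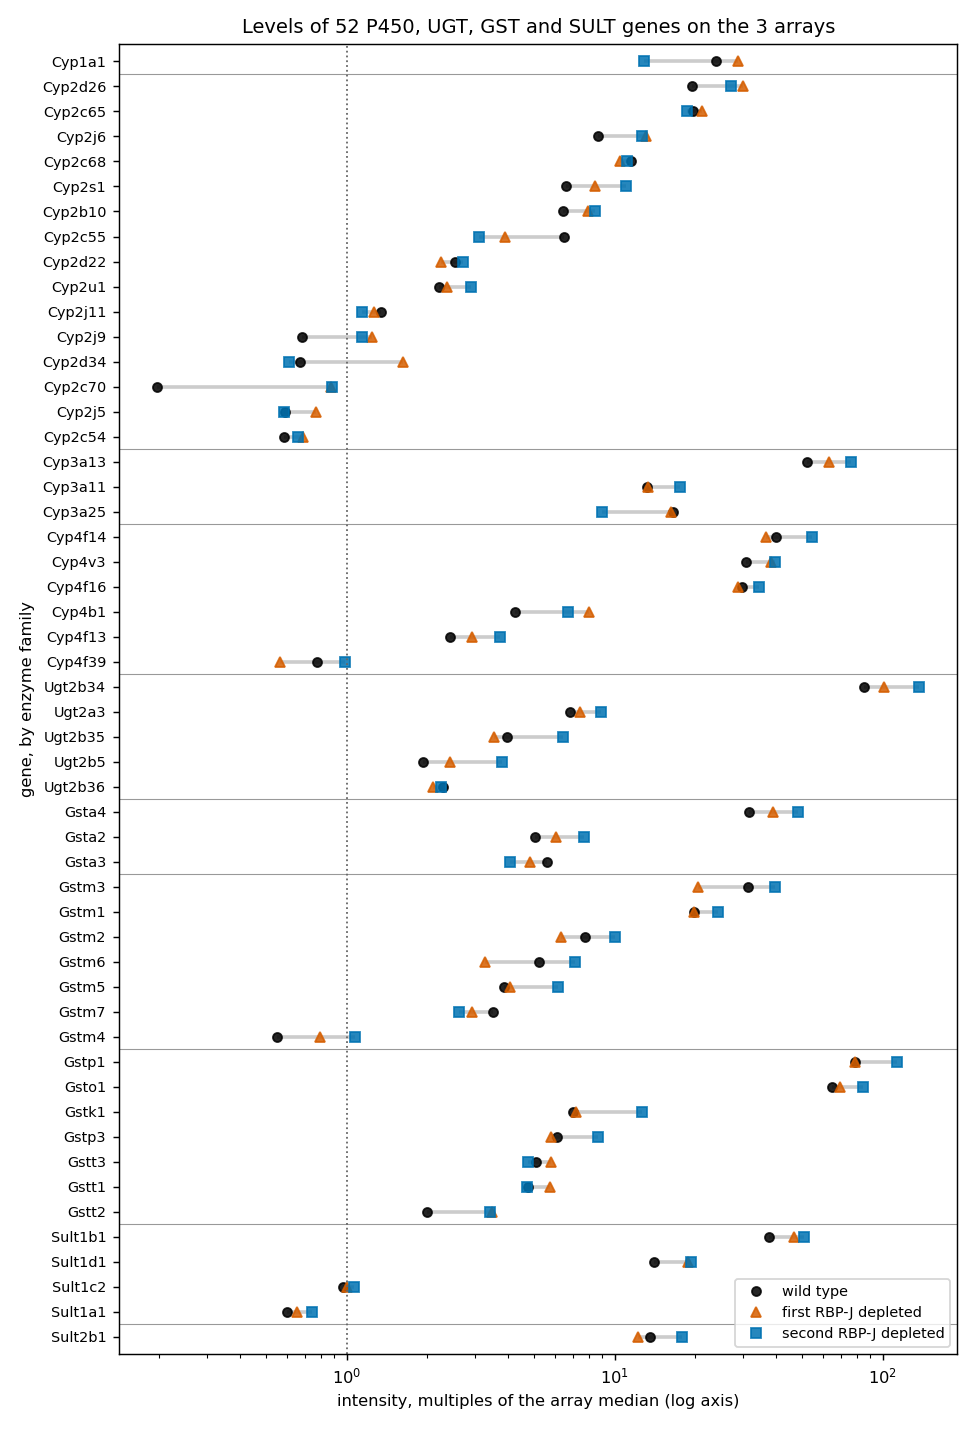
Intensity of each of the 52 enzymes above the filter, in multiples of the array median on a log axis, with wild type as circles, the first depleted array as triangles and the second as squares, grouped by family. For most genes the 3 symbols lie close together; the widest rows are Cyp2c70, Cyp2d34, Cyp1a1 and Gstm6, and the dotted line marks the array median of 1.

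No Ugt1 gene entered the set, because the probe sets of this locus, whose transcripts share their last exons, each carry several symbols. The 3 such probe sets read 87.7, 89.6 and 103, then 55.9, 54.4 and 62.5, then 53.1, 53.5 and 63.9. In the first depleted array they lay within 0.04 of wild type on the log2 scale, and in the second between 0.16 and 0.27 above it, near that array's median of 0.22. Of 8 Ugt2 genes, 5 were tested. Ugt2b34 read 85.3, 101 and 137, and both depleted arrays were above wild type, by 0.24 and 0.68 (limma 0.46, SE 0.36, adjusted p = 0.9997). Ugt2b5, which glucuronidates steroids and drugs in liver, read 1.93, 2.42 and 3.80, with differences of 0.29 and 0.90. Ugt2a3 read 6.80, 7.42 and 8.89, in the same order. Ugt2b35 read 3.97, 3.55 and 6.41 and Ugt2b36 read 2.29, 2.11 and 2.25. In this cluster on chromosome 5 the second depleted array was thus the highest for 4 of the 5. Less that array's median over all genes, the second array differed from wild type by 0.67 for Ugt2b5, 0.46 for Ugt2b34, 0.43 for Ugt2b35 and 0.15 for Ugt2a3.

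All 3 alpha glutathione transferases and all 7 of the mu class were tested, and 7 of 9 others. Alpha enzymes detoxify lipid peroxidation products. Gsta4, specific for hydroxynonenal, read 31.8, 38.9 and 48.3, and Gsta2 read 5.02, 6.05 and 7.68. In both genes wild type was lowest and the second depleted array highest. Gsta3 ran the other way, at 5.57, 4.81 and 4.06, with log2 differences of -0.20 and -0.43. A probe set shared by Gsta1, Gsta2 and Gm3776, which was not used, read 98.1, 98.9 and 129. The first depleted array was level with wild type there and the second above it.

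Mu transferases, neighbours on chromosome 3, had a median difference of -0.23 in the first depleted array, but of 0.36 in the second. Gstm3 read 31.3, 20.4 and 39.8, and Gstm6 read 5.22, 3.28 and 7.11. Both were low in the first depleted array, by -0.61 and -0.63, and above wild type in the second, by 0.34 and 0.43. The other probe set of Gstm3 turned the direction in the second, at -1.91 and -0.34, and without probe sets shared between transcripts the limma difference of Gstm3 went from -0.13 to -1.12. Gstm2 read 7.78, 6.32 and 10.03 and repeated the order with smaller steps. Gstm1 read 19.8, 19.7 and 24.3 on its brightest probe set, level with wild type in the first depleted array. Its other probe sets lay below wild type there, by -0.12, -0.875 and, on one under the filter, -0.38. In the second array the same probe sets were above wild type, by 0.35, 0.14 and 0.017. Gstm5 read 3.85, 4.07 and 6.15, by 0.07 and 0.64 above wild type. Gstm7 was below wild type in both, at 3.50, 2.94 and 2.61, and Gstm4 above it in both, at 0.550, 0.794 and 1.07. Gstm4 passed the filter of 0.598 only through its depleted readings. Transcripts of this class resemble each other, so the probe sets may read more than 1 member. The first depleted array was also that in which B cell markers summed to 29.0 against 58.4 in wild type. The M cell genes Gp2, Sox8 and Spib were below wild type there too. Of all 12 follicle-associated epithelium and M cell markers, 8 were above it in that array. The part of these cell types in the readings of the mu class was not tested.

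Of the other classes, Gstp1, the pi enzyme, read 78.6, 78.9 and 113, and Gsto1, of the omega class, read 64.9, 69.2 and 84.6. The first depleted array was within 0.10 of wild type for both, and the second was above it by 0.53 and 0.38. Gstk1, a mitochondrial and peroxisomal enzyme, read 6.99, 7.18 and 12.6, with the second array again alone, at 0.83. Gstt2, of the theta class, was above wild type in both depleted arrays, at 1.995, 3.50 and 3.44 (log2 differences of 0.74 and 0.72). Its limma difference of 0.73 (SE 0.51, adjusted p = 0.9997) did not pass the test. The theta relatives Gstt1 and Gstt3 on the same chromosome, 10, read 4.76, 5.73 and 4.72 and 5.10, 5.77 and 4.74, with the second array at the wild type level.

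All 4 tested sulfotransferases of family 1 were higher in both depleted arrays, by small steps, as were 39.0% of all genes. Sult1b1, which sulfates thyroid hormones and phenols in gut, read 37.8, 46.7 and 50.9, with differences of 0.30 and 0.43. Sult1d1, which sulfates catecholamines, read 14.0, 18.8 and 19.3, with 0.42 and 0.46. Sult1c2 and Sult1a1 stayed within 0.23 of wild type on the log2 scale. Less the second array's median over all genes, their differences in that array were -0.11 and 0.002. Sult1a1 read 0.596 in wild type and passed the filter of 0.598 only through its depleted readings. Of family 2, Sult2b1, a cholesterol sulfotransferase of epithelia, read 13.5, 12.2 and 17.8, with wild type between the depleted arrays. Sult2a2 and Sult2a8, of the bile acid and steroid sulfating group, had no reading above 0.261.

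**Figure D3:**
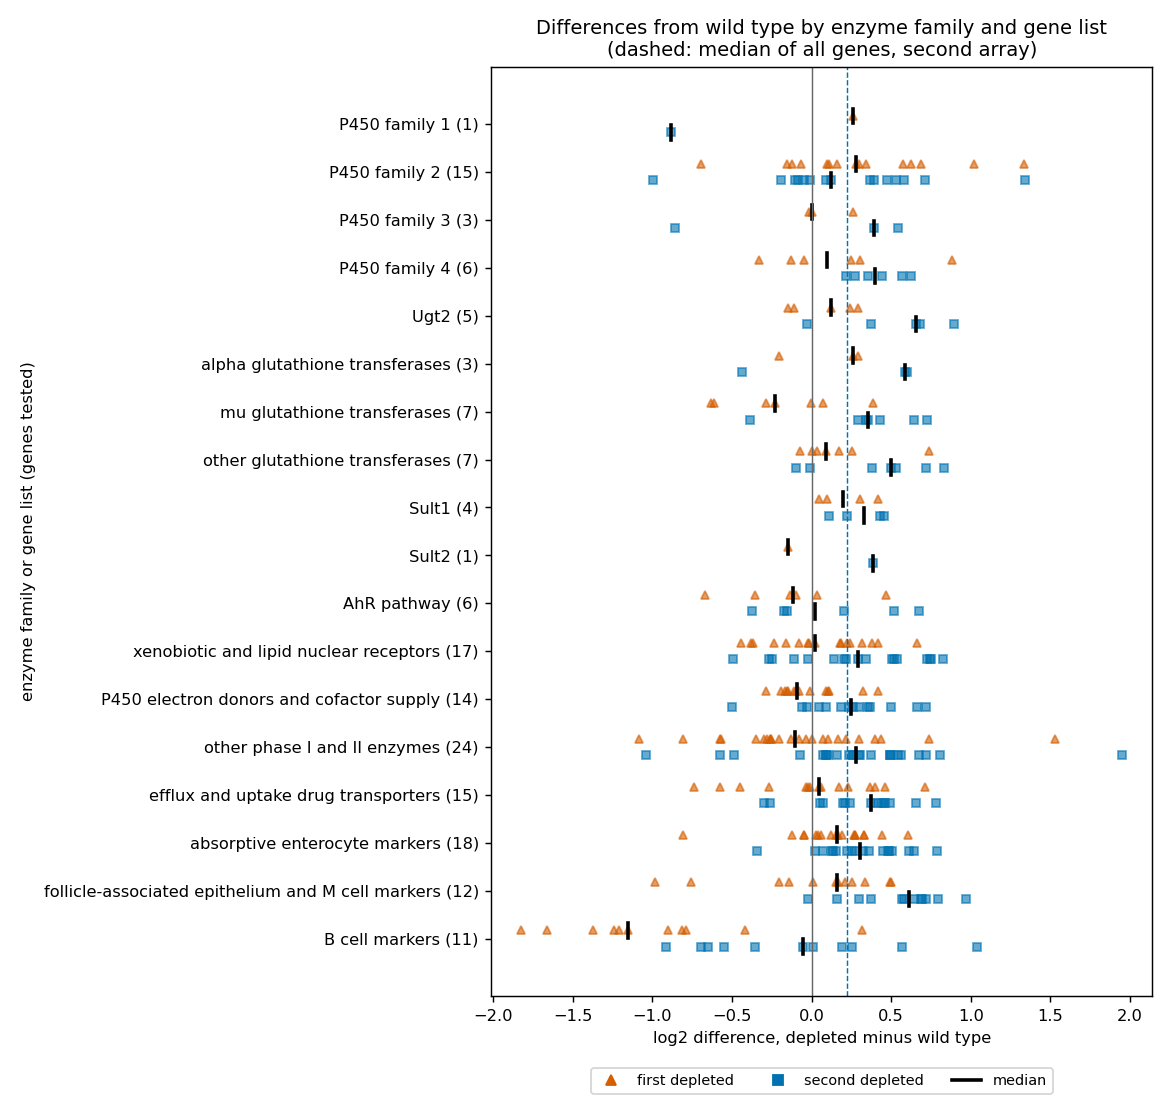
Log2 differences from wild type of every gene tested, by enzyme family (upper rows) and by related gene list (lower rows), with triangles for the first depleted array, squares for the second and bars for medians; the dashed line is the median of all genes in the second array. Family medians lie between -0.23 and 0.28 in the first array, and B cell markers in the bottom row lie far to the left in the first.

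The 40 enzymes not above the filter had readings between 0.007 and 0.999, and 18 of them were under the pseudocount on all 3 arrays. They include enzymes typical of liver, such as Cyp2e1, which oxidises ethanol, at 0.333, 0.022 and 0.15, and Cyp2c29 at 0.258, 0.569 and 0.494. They also include enzymes known in mouse liver to be higher in 1 sex, picked from that knowledge after the values were seen. Cyp4a12a and Cyp2d9, higher in males there, read 0.144, 0.073 and 0.066, and 0.105, 0.294 and 0.206. Cyp2b9, Cyp2b13 and Cyp3a44, higher in females there, read at most 0.101, 0.190 and 0.468. Nearest to the filter were Cyp2c54 above it, with a mean of 0.642, and Cyp4f41-ps below it, with 0.501. Differences of these dim genes were not interpreted.

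Where a gene had several probe sets, they served as a check within the array. Of 18 such enzymes, 8 had the same sign of difference in both depleted arrays on all probe sets. Among the 11 whose probe sets all passed the filter, 6 did. The other probe set of Cyp2j6 read 1.85, 3.71 and 3.31, that of Sult1d1 11.7, 17.0 and 17.1, and that of Ugt2b34 53.6, 63.9 and 76.0. Each repeated the order of its brighter partner against wild type. That of Gsta3 read 1.31, 0.86 and 0.673, also below wild type in both. That of Gstm3 read 17.9, 4.58 and 14.1, a log2 difference of -1.91 in the first depleted array, larger than on the brighter probe set, and of -0.34 in the second, where the brighter one gave 0.34. Cyp2d22 and Cyp4v3 had probe sets of opposite sign in both arrays, and Cyp2u1 and Cyp2b10 in the first.

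**Figure D4:**
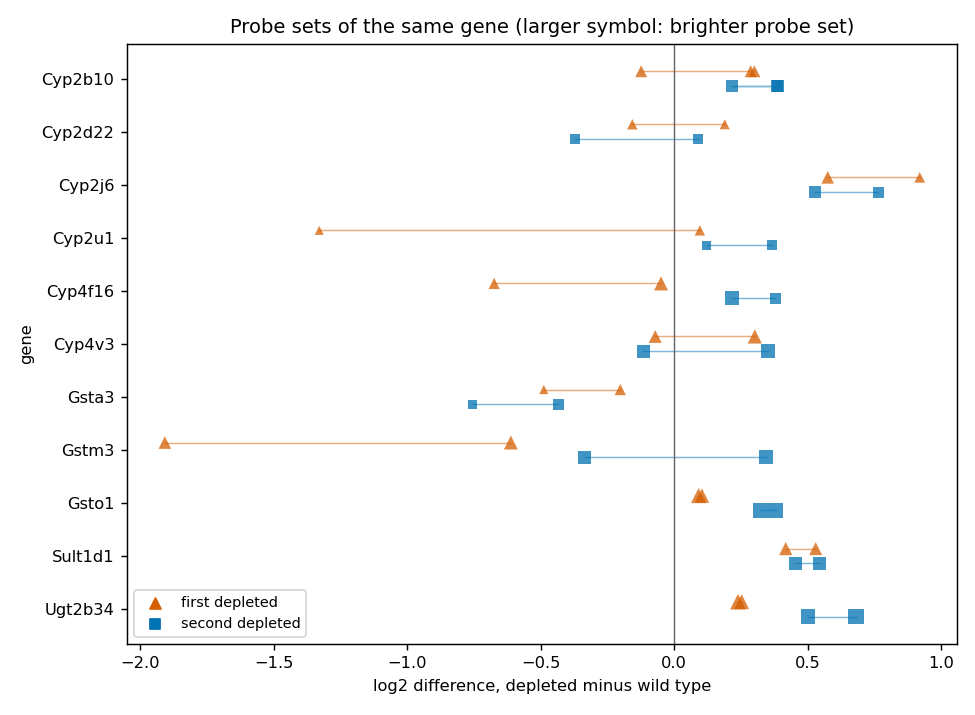
Log2 difference from wild type of each probe set for the 11 enzymes whose several probe sets all passed the filter, triangles for the first depleted array and squares for the second, with larger symbols for brighter probe sets. Probe sets of Gsto1, Sult1d1 and Ugt2b34 lie close together, while those of Gstm3 and Cyp2u1 lie far apart in the first array.

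The regulators and partners of these enzymes gave no call either. Their counts of genes higher or lower in both arrays stand beside 39.0% and 19.5% of all genes. Of the AhR pathway, 6 of 10 listed genes were tested, with 0 called, 2 higher and 3 lower in both arrays. Ahr read 13.6, 8.43 and 15.6, low in the first depleted array, where Cyp1a1 was highest, and above wild type in the second, where Cyp1a1 was lowest. Tiparp, an AhR target that feeds back on it, read 7.71, 7.18 and 5.89, and the AhR repressor Ahrr was not above the filter, at 0.254, 0.029 and 0.285. Of nuclear receptors and their partners, 17 were tested, with 0 called, 8 higher and 4 lower in both. Nr1i2, which encodes PXR, read 7.46, 8.87 and 9.18, and Nr1i3, which encodes CAR, read 4.28, 3.23 and 2.97. Nr1i2 RNA was thus above wild type in both depleted arrays, by 0.24 and 0.29, and Nr1i3 RNA below it in both, by -0.38 and -0.49. All genes had medians of -0.003 and 0.22, so the second difference of Nr1i2 lay near that array's median. Hnf4a, a driver of many enterocyte and liver genes, read 80.8, 76.4 and 89.1, and Ppara, the fatty acid receptor that induces Cyp4a, read 9.52, 15.2 and 15.9.

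Of 14 electron donor and cofactor supply genes tested, 0 were called, 5 were higher and 3 lower in both arrays and 6 split, with medians of -0.09 and 0.25. Gss, the glutathione synthetase, read 21.9, 17.96 and 15.5, below wild type in both, and Hmox1, the haem-degrading oxygenase, read 2.53, 2.18 and 4.32. Papss2, which makes the sulfate donor, read 108, 115 and 129, and Ugdh, which makes the glucuronic acid donor, 41.5, 44.7 and 48.9. Por, the P450 reductase, was listed but had no probe set of its own symbol and was not analysed here. Of 24 other oxidising, hydrolysing and conjugating enzymes, 0 were called, 10 were higher and 4 lower in both arrays, with medians of -0.10 and 0.28. The largest difference among them was that of the carboxylesterase Ces1d, at 0.576, 2.13 and 2.94 (limma 1.74, SE 0.55, unadjusted p = 0.00163, adjusted p = 0.666). With wild type under the filter of 0.598, Ces1d passed only through its depleted readings, so neither p supports a difference. Fmo2, a flavin monooxygenase, read 1.66, 0.842 and 0.680 and was not called. Of 15 drug transporters tested, 0 were called, 8 were higher and 2 lower in both, with medians of 0.04 and 0.37. Abcb1a, the P-glycoprotein pump, read 42.9, 50.4 and 50.8, and Slc22a4, a carnitine and ergothioneine transporter, 3.85, 6.46 and 6.78. Abcc3, a basolateral pump for glucuronides, read 22.5, 15.0 and 18.3, below wild type in both depleted arrays.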

How the data were processed

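RNA of 3 samples, 1 wild type and 2 RBP-J depleted, was labelled with biotin and hybridised to Affymetrix arrays, per the labels' protocols. The authors deposited an intensity on a linear scale for each of 45101 probe sets, with MAS5 named in the submitters' processing notes and a median of 1 on each array. By GEO's platform annotation, 34945 probe sets had 1 symbol, 932 several and 9160 none. Each gene took its brightest probe set, and 11885 genes at or above 0.598, the 40th percentile, were tested. Differences of log2(intensity + 0.248, the 25th percentile) were fitted in R 4.3.3 with limma 3.58.1 (lmFit, eBayes with an intensity trend), adjusted by Benjamini-Hochberg over all genes tested. Spread is estimated from the depleted pair alone and taken to hold for wild type too; eBayes added 600.5 prior degrees of freedom. The fit was tested on simulated data with the same noise for every gene and changes larger than any enzyme difference given here. That test therefore does not cover differences of the size reported. Depth does not apply to arrays, whose number limits the precision. Members, lists and named genes (the 3 brightest of each family, the 8 largest common differences each way, the 8 widest gaps between the depleted arrays, and a few regulators and the largest common differences of each list) were chosen with earlier results of these data known; further genes of a family were added after their values were seen. Alternatives changed the pseudocount, scaling, filter, choice of probe set, trend and depleted array.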

Additional observations from a re-analysis of the deposited data

How the results depend on the processing

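No enzyme was called under any of the alternatives tried with a test. Counts of all genes called went from 10 to 3 with quantile normalization, to 4 with the same 75th percentile per array, to 4 with each array's median difference at 0, to 1 with no intensity filter and to 6 with the filter at the 60th percentile. The count of enzymes past 2-fold in both depleted arrays went from 1 to 0 with a pseudocount of 1 or 5 or the stricter filter, and to 2, Cyp2c70 and the dim Cyp1b1, with no filter. With a single depleted array it was between 1 and 2. The enzymes' median difference in the second array went from 0.39 to 0.13 with quantile normalization, to 0.16 with each median at 0, to 0.20 with the same 75th percentile and to 0.24 with a pseudocount of 5, which took that of the first array from 0.10 to 0.040. The cause of these moves was not tested, beyond fewer or more genes entering under other filters.

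Of 445 values of 38 named enzymes under alternatives, 420 kept their direction. With quantile normalization the sign turned for Cyp2c65 (-0.15), Cyp4f14 (-0.056), Cyp4f16 (-0.090), Gstm1 (-0.029), Gstm2 (-0.074), Gsto1 (-0.0090) and Sult2b1 (-0.013). With the same 75th percentile it turned for Cyp2c65 (-0.059) and Gstm2 (-0.036). With each median at 0 it turned for Cyp2c65 (-0.10), Cyp4f16 (-0.026), Gstm2 (-0.076) and Sult1c2 (-0.033), and without probe sets that end in a suffix for shared transcripts for Cyp4v3 (-0.093). With a single depleted array left, the sign depended on which it was for these genes, the value from the first array given before that from the second: Cyp1a1 (0.26 and -0.88), Cyp2c65 (0.11 and -0.084), Cyp2d34 (1.02 and -0.10), Cyp4f14 (-0.13 and 0.44), Cyp4f16 (-0.049 and 0.22), Gstm1 (-0.0043 and 0.29), Gstm2 (-0.29 and 0.36), Gstm3 (-0.61 and 0.34), Gstm6 (-0.63 and 0.43), Sult2b1 (-0.15 and 0.39) and Ugt2b35 (-0.15 and 0.66). No paired analysis was possible because the wild type group has 1 array, so the numbers of the depleted arrays pair with nothing. Dim enzymes near the pseudocount limit what these arrays can show.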
